A study of Mus musculus with 12 samples.

Results

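The liver tumors of Setd2 knockout (KO) mice were compared with those of wild-type (WT) mice after the carcinogen diethylnitrosamine (DEN). The comparison rests on 6 of the 12 libraries of the series, chosen by their titles, which name 3 KO tumors (titled Setd2-cKO-T) and 3 WT tumors (titled Setd2-WT-T). The other 6 libraries come from normal liver of the same genotypes, taken from male mice aged 8 months without DEN, and serve only to show where the tumors differ. Both tumor groups came from male mice that received 1 intraperitoneal dose of DEN at 25 mg/kg when 2 weeks old and were sacrificed at 8 months. So KO and WT tumors share the DEN treatment, and the genotype is what the labels separate. The labels give no strain, Cre driver, deleted exon or target cell for the KO allele, and do not state whether tumors were pooled or how many nodules a mouse gave. They number the libraries of a group 1 to 3 without stating that each came from its own animal, so the p-values below measure only the spread between these samples, which may be partly technical. Of 24553 entries in each table, 11671 reached 1 FPKM (a level per transcript length and library size) in 3 or more of the 12 libraries and were tested.

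SETD2 is the methyltransferase that adds the third methyl group to lysine 36 of histone H3 (H3K36) behind transcribing RNA polymerase II. The mark is known for its part in splicing, in the suppression of transcription starts inside genes, in DNA methylation over gene bodies and in DNA repair, and SETD2 is a recurrently mutated gene in several human cancers. DEN is activated by cytochrome P450 enzymes in hepatocytes of the central part of the liver lobule, where it alkylates DNA, and injection of young male mice is a standard way to induce hepatocellular tumors.

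Hepatocyte transcripts were present in all 6 tumor libraries: Ttr, which encodes the plasma carrier transthyretin, was at 7627, 4557 and 7119 FPKM in WT tumors 1, 2 and 3 and at 1397, 4837 and 3715 FPKM in KO tumors 1, 2 and 3. KO tumors resembled each other less than WT tumors did, with a median SD of log2(FPKM + 1) of 0.31 against 0.19 and a correlation between libraries across genes of 0.924 to 0.942 against 0.949 to 0.985. FPKM values summed to 423498 to 626303 in KO tumors and 495141 to 596624 in WT tumors, and 10788 to 11620 entries a library reached 1 FPKM. Total reads are not in the tables, so the depth behind a value is unknown. Some exact zeros and some low values are not credible as levels. Gapdh, a glycolysis gene of nearly all cells, is listed at 0.067 to 0.73 FPKM in the 6 tumors. Setting zeros to missing does not reach such values. Albumin is listed at 0 in 5 tumor libraries and at 14260.0 in KO tumor 2, and WT tumor 1 lists 0 for Ahsg, Dnajb11, Trf, Serpina1e and Serpina1b, which the rest of its group has at 10 FPKM or more. These tumors are bulk tissue, in which fewer cells of a type and less RNA per cell cannot be told apart.

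Setd2 (chr9:110532597-110618633, GRCm38) was at 4.4, 3.61 and 4.07 FPKM in WT tumors 1, 2 and 3 and at 3.14, 2.18 and 1.9 FPKM in KO tumors 1, 2 and 3. The groups did not overlap, KO tumor 1 being the nearest to WT, but the log2 difference of -0.57 ± 0.19 (KO minus WT, ± SE) did not pass limma's test (adjusted p = 0.188). A value over the whole gene does not show which exons are left or which cells kept the allele. Of 26 tested enzymes and readers of H3K36 methylation 0 were called, 3 lay lower in all KO tumors than in any WT tumor and 1 lay higher, with a median difference of -0.07 against 0.02 over all 11671 entries. The 3 were Setd2 itself, Whsc1l1, which encodes the methyltransferase NSD3 (9.02, 16.1 and 11.3 FPKM in WT, 7.53, 5.4 and 8.06 FPKM in KO tumors), and Phf1, which encodes a reader of the trimethyl mark (9.58, 12.2 and 10.7 and 8.93, 7.35 and 7.75 FPKM). Brpf1, a subunit gene of a histone acetyltransferase complex that reads the mark, was the 1 that lay higher, by 0.25 ± 0.14, and Nsd1, for a methyltransferase of the lower methylation states, overlapped between groups (-0.03 ± 0.15). The files measure RNA, and the mark itself was not analysed here. In normal liver the KO-minus-WT difference of Setd2 was -1.05, larger than in the tumors, though the interaction of genotype and tissue was not passed (adjusted p = 0.241).

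In all, 9 genes passed the test between KO and WT tumors (adjusted p below 0.05), 4 of them higher in KO (0.0343% of the 11671 entries) and 5 lower (0.0428%). An unadjusted p below 0.05 was reached by 1272 entries higher and 786 lower in KO. A fit over all 12 libraries, which estimates the spread from the liver samples as well, called 697 entries higher and 320 lower. With 1 library left out the calls numbered 0 without WT tumor 1, 0 without WT tumor 2, 2 without WT tumor 3, 2 without KO tumor 1, 3 without KO tumor 2 and 266 without KO tumor 3. Genes were called less strictly by whether the 3 KO values lay wholly on 1 side of the 3 WT values: 13.8% of all entries had every KO tumor above every WT tumor and 10.1% had every KO tumor below, and the gene groups below are read against these shares.

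An entry that reaches the filter only with the libraries of 1 tumor group tends to be high in that group by selection, so that its separation supports nothing. Of the 11671 entries 707 needed the libraries of 1 tumor group to pass. Of the other 10964, 12.8% lay higher and 10.4% lower in KO tumors without overlap. Members of the latter kind are called retained below, and counts and medians are over retained members where a group lost any, unless they are said to be over all tested members. The ranges with 1 library left out are over all tested members. Abcc12 and Mst1r, among the 9 called genes, were not retained: Abcc12 passed the filter through the KO tumors and Mst1r through the WT tumors.

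Among the 4 genes that rose, Ier3 (chr17:35821684-35822923), an immediate early gene induced by NF-kB and stress, was at 3.03, 2.6 and 3.33 FPKM in WT tumors and at 35.2, 21.3 and 22.1 FPKM in KO tumors (2.74 ± 0.23, adjusted p = 0.0306). Cd14 (chromosome 18), the lipopolysaccharide co-receptor of macrophages that hepatocytes also make, was at 7.7, 12.3 and 7.26 FPKM in WT and 57.2, 47.7 and 49 FPKM in KO tumors (2.40 ± 0.23, adjusted p = 0.0306). The 3 KO values of Cd14 lay within 10 FPKM of each other. Krtcap3 (chr5:31251691-31253202), a keratinocyte-associated membrane protein gene, rose from 0.307, 0.586 and 0.994 FPKM to 6.57, 7.17 and 5.09 FPKM (2.17 ± 0.21, adjusted p = 0.0306). Abcc12 (chr8:86482260-86580686), a transporter gene of the ABC family, rose from 0.451, 0.844 and 0.358 FPKM to 12.9, 11.1 and 6.33 FPKM, and KO tumor 3 was the lowest of the KO tumors (2.81 ± 0.27, adjusted p = 0.0306). Both genes were under 1 FPKM in all 3 WT tumors, where the added 1 makes the log2 difference smaller than the ratio of the levels.

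Among the 5 genes that fell, 3 are steps of cholesterol synthesis and are described with their pathway below. Slc22a28 (chr19:8062209-8131982), an organic anion transporter gene of hepatocytes, was at 29.6, 29.3 and 31.5 FPKM in WT and 4.23, 5.27 and 7.64 FPKM in KO tumors (-2.24 ± 0.21, adjusted p = 0.0306). Mst1r (chr9:107906873-107920383) encodes RON, the receptor kinase for macrophage-stimulating protein, which hepatocytes secrete. It was at 5.36, 3.38 and 3.56 FPKM in WT tumors and at 0.078, 0.289 and 0.197 FPKM in KO tumors (-2.09 ± 0.20, adjusted p = 0.0306), so that every KO tumor was under 1 FPKM. All 9 genes kept their direction in each of the alternative analyses that could be run on them.

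**Figure D1:**
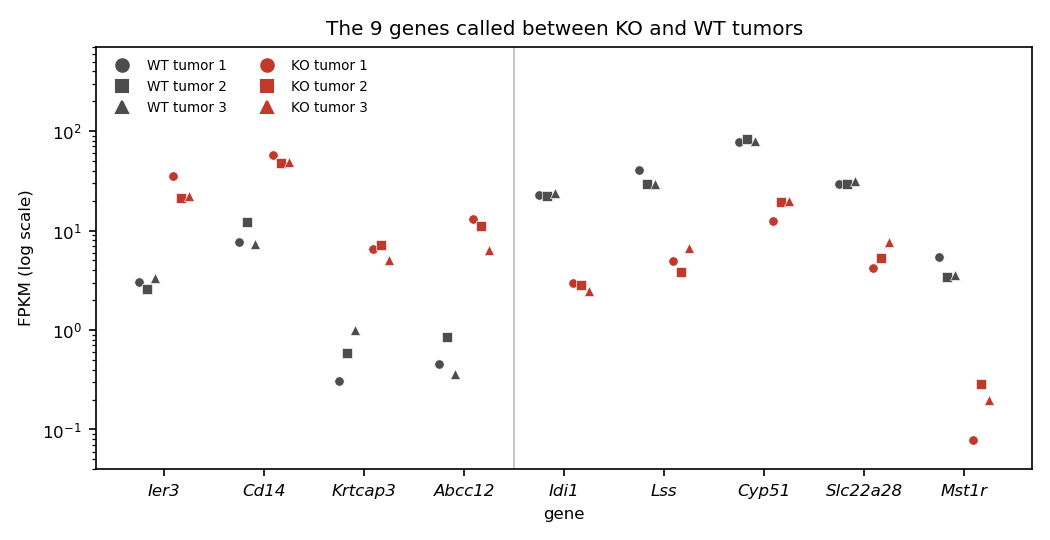
FPKM of the 9 called genes (log axis) in each WT tumor (grey) and KO tumor (red), with 1 symbol per library number. In all 9 genes the 3 KO tumors lie wholly above (Ier3, Cd14, Krtcap3, Abcc12) or wholly below (Idi1, Lss, Cyp51, Slc22a28, Mst1r) the 3 WT tumors.

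Sterol synthesis genes lay lower in all 3 KO tumors. Cholesterol is made from acetyl-CoA through mevalonate and squalene, and the genes of the route are targets of the transcription factor SREBP2, which cells activate when sterols in the endoplasmic reticulum run low. A classical sterol regulatory element carries the letters TCACNCCAC. In the 250 bases before the start of each gene, searched on both strands, these letters were found in 1 of 7 mevalonate pathway genes with a RefSeq promoter (GRCm38.p6), in 0 of 11 later sterol genes, and in 1.22% of the 27025 genes with a promoter. Below are the 150 bases before the start of the 1 gene with a match, Hmgcs1 (capitals mark the match, 137 bases before the start), and of the 3 called sterol genes, which have none in this window, 5′ to 3′ on the gene's strand (RefSeq starts on GRCm38.p6, which can differ from the GENCODE gene starts given with the values).
Hmgcs1, chr13:119690201-119690350, plus strand: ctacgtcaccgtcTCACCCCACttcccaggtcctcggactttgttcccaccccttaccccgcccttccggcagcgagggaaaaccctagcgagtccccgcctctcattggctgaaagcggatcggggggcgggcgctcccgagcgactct
Idi1, chr13:8885456-8885605, plus strand: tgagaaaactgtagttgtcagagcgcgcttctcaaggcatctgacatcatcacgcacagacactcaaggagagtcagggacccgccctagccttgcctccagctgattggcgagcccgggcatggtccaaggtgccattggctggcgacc
Lss, chr10:76531455-76531604, plus strand: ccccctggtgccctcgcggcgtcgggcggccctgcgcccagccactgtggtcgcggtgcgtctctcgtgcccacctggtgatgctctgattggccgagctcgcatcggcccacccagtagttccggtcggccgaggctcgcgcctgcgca
Cyp51, chr5:4104698-4104847, minus strand: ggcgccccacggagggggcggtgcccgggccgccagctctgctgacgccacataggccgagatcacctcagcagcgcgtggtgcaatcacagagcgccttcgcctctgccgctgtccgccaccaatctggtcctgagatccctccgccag
Other spellings of the element were not searched, so the missing letters say only that this 1 form is not in these windows.

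Of 10 tested genes from acetyl-CoA to squalene, 9 lay lower in every KO tumor than in any WT tumor, 1 of them called, and the median difference was -1.87. Idi1 (chr13:8885501-8892451), the isomerase that makes dimethylallyl diphosphate, fell with hardly any spread inside the groups: it was at 22.6, 22.3 and 23.6 FPKM in WT tumors and 2.95, 2.84 and 2.46 FPKM in KO tumors (-2.67 ± 0.14, adjusted p = 0.00402). Hmgcs1, the cytosolic HMG-CoA synthase gene, was at 254, 185 and 182 FPKM in WT and 21.8, 62.3 and 23.6 FPKM in KO tumors, where KO tumor 2 stood higher than the other KO tumors (-2.64 ± 0.41, adjusted p = 0.0603). The groups did not overlap for Hmgcs1, although it did not pass the test. The kinase gene Mvk differed by -1.63 ± 0.24 and the squalene synthase gene Fdft1 by -1.56 ± 0.19. The exception among the 10 was Ggps1, named after its values were seen, whose product leads away from sterols to geranylgeranyl groups (difference 0.18).

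Past squalene, all 13 tested genes had a lower mean in KO tumors, 11 without overlap, 2 of them called, with a median difference of -1.41. Sqle, the squalene epoxidase gene, was at 75.4, 81.3 and 84.9 FPKM in WT tumors and 13.1, 30.8 and 11.3 FPKM in KO tumors (-2.2 ± 0.36, adjusted p = 0.0679), and as for Hmgcs1 KO tumor 2 was the highest KO tumor. Lss (chr10:76531588-76557138), which closes the sterol rings as lanosterol synthase, fell from 41, 29.5 and 29.3 FPKM to 4.89, 3.86 and 6.61 FPKM (-2.49 ± 0.23, adjusted p = 0.0306). Cyp51 (chr5:4081145-4104746), the lanosterol demethylase, fell from 76.8, 84.1 and 79.1 FPKM to 12.4, 19.5 and 19.97 FPKM (-2.17 ± 0.22, adjusted p = 0.0306). For both, the lowest WT value was more than 3 times the highest KO value. Msmo1 (-2.19 ± 0.26) and Sc5d (-1.72 ± 0.19), which act later on the ring, lay at an adjusted p of 0.0512 each. The summed FPKM of the 10 mevalonate genes was 754.1 to 873.4 in WT tumors and 119.3 to 259.9 in KO tumors.

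**Figure D2:**
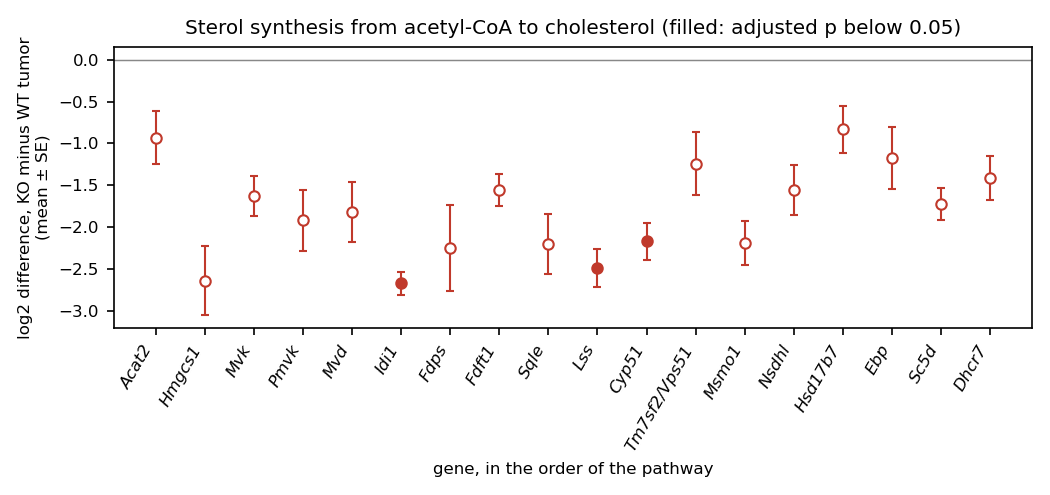
Log2 difference (KO minus WT tumor, mean ± SE) of 18 sterol synthesis genes in pathway order, from Acat2 to Dhcr7; filled points passed the test. All points lie below 0, and Hmgcs1 and Idi1 lie lowest, at -2.64 and -2.67.

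Genes that control and use SREBP were lower less evenly: of 17 tested, 0 were called, 7 lay lower without overlap and 0 higher, with a median difference of -0.56. Insig1, which holds SREBP in the endoplasmic reticulum and is itself a sterol-regulated gene, was at 101, 134 and 139 FPKM in WT and 15.5, 31.1 and 43.8 FPKM in KO tumors (-2.11 ± 0.37, adjusted p = 0.0775). The groups did not overlap for Insig1, and KO tumor 1 was the lowest. Stard4, a sterol transfer protein gene, differed by -2.01 ± 0.28. Srebf2, which encodes SREBP2, was at 24.5, 19.4 and 18.2 FPKM in WT and 9.32, 13.2 and 11.3 FPKM in KO tumors (-0.83 ± 0.20, adjusted p = 0.116), a smaller difference than that of most of the synthesis genes above.

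Fatty acid synthesis genes pointed the same way but KO tumor 1 weighed heavily. All 12 tested members had a lower mean in KO tumors and 0 were called. Of the 11 retained, 4 lay lower without overlap, with a median difference of -0.63, and the median of -0.75 over all tested became -0.21 without KO tumor 1 and -1.22 without WT tumor 1. Acacb, the acetyl-CoA carboxylase gene of the mitochondrial surface, was at 6.84, 12.8 and 15.2 FPKM in WT and 0.968, 2.07 and 4.62 FPKM in KO tumors (-1.90 ± 0.43, adjusted p = 0.109). Acly, which supplies cytosolic acetyl-CoA from citrate, was at 81.9, 139 and 152 and 54.3, 71 and 62.5 FPKM (-0.94 ± 0.28, adjusted p = 0.162). Fasn, the fatty acid synthase gene, overlapped between groups at 44.5, 120.1 and 117 FPKM in WT and 24.2, 108 and 62.9 FPKM in KO tumors. Acss2, which makes acetyl-CoA from acetate, differed by -1.61 ± 0.50, and the entry of Pnpla3, a lipid droplet lipase gene that passed the filter through the WT tumors, by -1.51 ± 0.43. Of 14 retained desaturase and elongase genes 0 were called, 5 lay lower without overlap and 0 higher (median -0.99, and over all 15 tested -0.85, or -0.36 without KO tumor 1 and -0.56 without KO tumor 2). Fads1 and Fads2, the desaturases of polyunsaturated fatty acids, differed by -2.23 ± 0.48 and -1.56 ± 0.41, and the elongase gene Elovl2 by -1.14 ± 0.38 (-0.70 without KO tumor 2). Scd1, the stearoyl-CoA desaturase gene, overlapped: it was at 536, 947 and 1994 FPKM in WT and 84.2, 1413 and 541 FPKM in KO tumors, and KO tumor 2 was above 2 of the 3 WT tumors.

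Lipid storage and oxidation showed no shared direction. Among 20 genes of triglyceride synthesis and lipid droplets 3 lay higher without overlap and 1 lower, and the median of 0.11 ran from -0.02 without WT tumor 1 to 0.53 without KO tumor 1. The 3 were Cd36, the fatty acid translocase gene, at 18.4, 21.1 and 14 FPKM in WT and 47.5, 43.1 and 41.2 FPKM in KO tumors (1.27 ± 0.19, adjusted p = 0.0598), Fabp4, a fatty acid binding protein gene of adipocytes, macrophages and capillaries (1.30 ± 0.32), and the lipase gene Pnpla2 (0.91 ± 0.34, or 0.52 without KO tumor 3). The 1 lower gene was Gpam, the acyltransferase that opens glycerolipid synthesis, at 38.6, 44.3 and 40.1 and 21.3, 24.3 and 19.8 FPKM (-0.88 ± 0.16, adjusted p = 0.0793). Cidec, a gene of droplet fusion, stood out in KO tumor 3 alone, with 3.99, 10.5 and 51.3 FPKM in KO and 3.44, 5.84 and 6.99 FPKM in WT tumors. Of 24 fatty acid oxidation genes 1, the ketone body gene Bdh1 (-0.74 ± 0.22), lay lower without overlap and 0 lay higher (median -0.05, which ran from -0.22 without KO tumor 3 to 0.28 without KO tumor 1), and Cpt1a, whose enzyme gates mitochondrial fatty acid entry, overlapped between groups (0.30 ± 0.30). Of 15 cholesterol efflux genes 1 lay higher and 2 lower without overlap (median -0.17, but 0.16 without KO tumor 1 and -0.43 without KO tumor 3). Abcg1, which passes cholesterol to lipoproteins, lay higher (1.0 ± 0.20) and Nr1h3, which encodes the oxysterol receptor LXR alpha, lay lower without overlap (-0.50 ± 0.22), while Abca1, of the same transporter family, overlapped.

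Interferon-stimulated genes lay higher by nearly the same amount in all 3 KO tumors. Interferons act through STAT proteins and IRF9 on the interferon-stimulated response element, in which GAAA, any 2 bases and GAAA follow each other. These letters occurred, on either strand of the 250 bases before the start, in 14 of 28 interferon-stimulated genes with a matched promoter (50%) and in 3.46% of all 27025 genes; matches can overlap, and each gene counts once. Of the KO-minus-WT differences, the median was 1.06 over the 14 symbols with the letters, 0.60 over the 14 without and 0.91 over the 13 with no matched promoter, where symbols of a joined entry count singly. The stretches below are from Oas1a, Isg15 and Ifit1, which hold the letters (in capitals), and from Oasl2, which lay higher too but has no match in its window.
Oas1a, chr5:120907526-120907675, minus strand: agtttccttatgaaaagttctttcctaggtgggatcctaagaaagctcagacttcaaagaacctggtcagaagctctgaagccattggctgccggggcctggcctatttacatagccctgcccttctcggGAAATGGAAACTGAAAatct
Isg15, chr4:156200819-156200968, minus strand: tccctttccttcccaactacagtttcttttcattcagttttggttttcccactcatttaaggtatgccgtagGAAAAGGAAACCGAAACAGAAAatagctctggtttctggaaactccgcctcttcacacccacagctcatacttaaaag
Ifit1, chr19:34640739-34640888, plus strand: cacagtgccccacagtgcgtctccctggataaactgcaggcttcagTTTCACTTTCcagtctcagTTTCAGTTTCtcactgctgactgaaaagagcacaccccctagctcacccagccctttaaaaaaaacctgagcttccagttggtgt
Oasl2, chr5:114896784-114896933, plus strand: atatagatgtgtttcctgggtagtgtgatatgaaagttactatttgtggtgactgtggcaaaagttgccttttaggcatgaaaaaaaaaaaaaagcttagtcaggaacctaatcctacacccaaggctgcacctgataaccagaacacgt
In Ifit1 the letters stand on the opposite strand, so they read as TTTC, and the genes with and without them overlap widely in their differences.

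Of 39 tested interferon-stimulated genes 37 had a higher mean in KO tumors and 0 were called. Of the 38 retained, 27 lay higher without overlap, with a median difference of 0.77. Relative to the mean of the WT tumors, the mean log2(FPKM + 1) of the 39 tested was 0.91, 0.86 and 0.91 in KO tumors 1, 2 and 3. It was -0.08 to 0.11 in WT tumors. The entry of Oas1a and Oas1g, which make the second messenger that activates RNase L, was at 3.53, 4.35 and 1.6 FPKM in WT and 18.3, 20.1 and 20.1 FPKM in KO tumors (2.36 ± 0.28, adjusted p = 0.0512). Zbp1, a sensor of Z-form nucleic acids, was at 3.96, 8.56 and 7.99 and 31.2, 40.6 and 29.8 FPKM (2.2 ± 0.29, adjusted p = 0.0512). Isg15, a ubiquitin-like modifier gene, was at 32.2, 20.3 and 12.7 FPKM in WT tumors and close to 60 FPKM in every KO tumor, at 63.8, 58 and 60.04 (1.53 ± 0.32, adjusted p = 0.0917). In these 3 genes the KO tumors differed little from each other. Oasl2 (1.69 ± 0.23) and Oasl1 (1.62 ± 0.25), relatives of Oas1a, also lay higher without overlap. Rsad2, the antiviral enzyme viperin, was low in both groups, at 1.98, 2.86 and 2.21 and 2.92, 4.21 and 5.31 FPKM, and Ifit1, which binds foreign RNA ends, overlapped at 4.19, 4.91 and 1.85 and 6.84, 3.85 and 6.79 FPKM. Iigp1, an interferon-inducible GTPase gene named after its values were seen, was the 1 member that lay lower without overlap (-1.05).

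**Figure D3:**
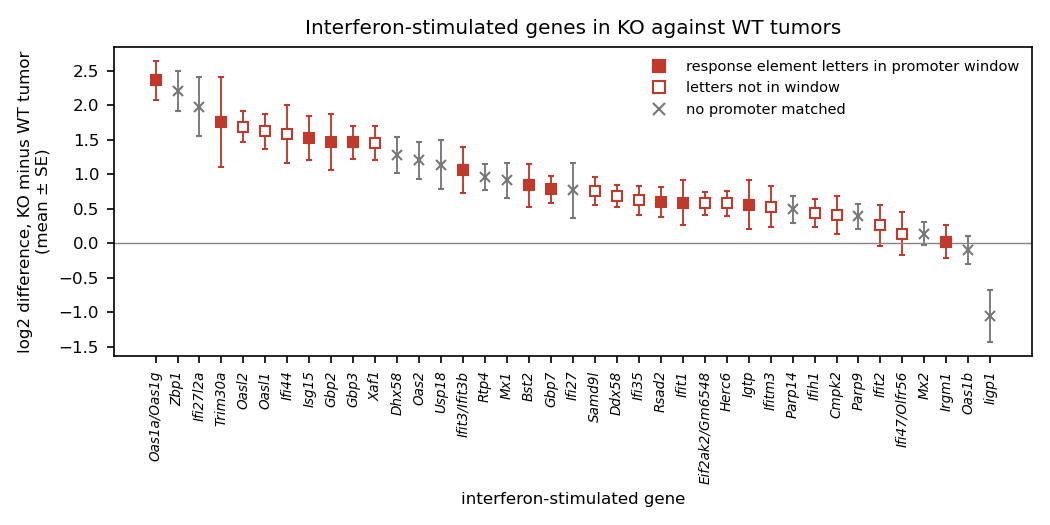
Log2 difference (KO minus WT tumor, mean ± SE) of the 39 tested interferon-stimulated genes, with filled squares where the promoter window holds the response element letters, open squares where it does not and crosses where no promoter was matched. Of the 39 points 37 lie above 0, and filled and open squares overlap, from 0.02 to 2.36 with the letters and from 0.14 to 1.69 without them.

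Regulators of the response were less uniform. Of 21 retained, 5 lay higher and 2 lower without overlap, and the median was 0.22. Irf7, the factor that amplifies type I interferon, was at 24.7, 24.5 and 21.3 FPKM in WT and 64.8, 86.1 and 130.3 FPKM in KO tumors (1.90 ± 0.27, adjusted p = 0.0544). Ddx58, which encodes the RNA sensor RIG-I, differed by 0.68 ± 0.16 and Irf8, a factor of myeloid cells, by 0.89 ± 0.22, both without overlap. Ddx58 is also counted among the interferon-stimulated genes. The entry that joins Stat2 with Apof, a lipoprotein gene of hepatocytes, differed by -0.26 ± 0.20 and cannot be read as Stat2 alone.

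The MHC class I pathway, which cuts and displays peptides from inside the cell, had 16 of 20 members higher without overlap, 0 lower and 0 called (median 0.84). The immunoproteasome subunit gene Psmb8 was at 33.9, 45.1 and 39.6 FPKM in WT and 139, 326 and 129 FPKM in KO tumors (2.17 ± 0.37, adjusted p = 0.0734), highest in KO tumor 2. The peptide transporter gene Tap2 followed the same order, at 14.3, 21.1 and 16.8 and 48.7, 110.5 and 49.4 FPKM (1.85 ± 0.35, adjusted p = 0.0826). Tapbp, which bridges the transporter to class I molecules, differed by 1.07 ± 0.23, and the joint entry of the class I genes H2-T22 and H2-T9 by 1.08 ± 0.21. B2m, the light chain gene, was abundant in both groups and lay only slightly higher, at 2757, 2062 and 2270.0 FPKM in WT and 3151, 3019 and 2961 FPKM in KO tumors (0.38 ± 0.30). Ubd, a ubiquitin-like modifier gene induced by interferon gamma and TNF, had a larger difference than the other genes named here that lay higher: it was at 1.2, 12.3 and 18.6 FPKM in WT and 154, 203 and 38 FPKM in KO tumors (3.69 ± 0.94, adjusted p = 0.128), with KO tumor 3 closest to WT.

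MHC class II genes, typical of professional antigen-presenting cells, had 9 tested of 14 listed. Of the 8 retained, 7 lay higher without overlap and 0 were called, with a median of 1.62. H2-Aa, a class II chain gene, was at 75.3, 59.6 and 77.2 FPKM in WT tumors and 270.0, 437 and 86.3 FPKM in KO tumors (1.61 ± 0.56, adjusted p = 0.208). The entry of Cd74, the invariant chain, was at 179, 149.9 and 212 and 879, 1128 and 205 FPKM. In both, KO tumors 1 and 2 stood far above WT tumors and KO tumor 3 stood near them. Ctss, the protease that trims the invariant chain, differed by 1.94 ± 0.39 and H2-DMb1, of the peptide loading complex, by 1.64 ± 0.40.

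Macrophage markers accompanied these groups: of 22 retained of 25 tested, 11 lay higher without overlap, 0 lower, and 1 (Cd14) was called, with a median of 1.31. The summed FPKM of the 25 was 619.7 to 858.5 in WT and 1262.0 to 4532.0 in KO tumors. None of the defining markers Adgre1, Clec4f, Csf1r, C1qa and Cd68 was at 0 in any tumor. C1qa, a complement gene of tissue macrophages, was at 70.6, 29.9 and 39.4 FPKM in WT and 102, 201 and 131 FPKM in KO tumors (1.65 ± 0.38, adjusted p = 0.112). Trem2, a lipid receptor gene of macrophages in injured tissue, was at 1.44, 1.8 and 1.21 and 5.63, 10.8 and 4.9 FPKM (1.64 ± 0.28, adjusted p = 0.0734). For both, every KO tumor lay above every WT tumor. Clec4f, by contrast, which marks resident Kupffer cells, was at 54.5, 10.5 and 11.8 FPKM in WT and 12.6, 2.55 and 89.7 FPKM in KO tumors: it was highest in KO tumor 3, next in WT tumor 1 and lowest in KO tumor 2. Adgre1, which encodes the pan-macrophage antigen F4/80, overlapped at 11.6, 3.73 and 5.02 and 9.17, 12.2 and 14.5 FPKM. Cybb, the catalytic subunit gene of the phagocyte NADPH oxidase, was at 7.45, 3.21 and 3.74 FPKM in WT and 84.5, 82 and 24.2 FPKM in KO tumors (3.35 ± 0.52, adjusted p = 0.0603). Fcgr1 (1.29 ± 0.24), Laptm5 (1.37 ± 0.26) and Csf1r (1.17 ± 0.37), of myeloid cells, also lay higher without overlap. The part of macrophage content in the values of the interferon and antigen presentation genes was not tested.

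Of 15 neutrophil markers 5 were tested and retained. These 5 lay higher without overlap, with a median of 1.58, but the median over the list without the filter on low FPKM was 0.67. The 5 had a summed FPKM of 101.1 to 450.2 in WT and 1434.0 to 3847.0 in KO tumors, most of it Lcn2. The defining marker Ly6g was listed at 0 in 4 of the 6 libraries. S100a8 was at 3.95, 3.87 and 4.11 FPKM in WT and 12.7, 8.07 and 25.3 FPKM in KO tumors (1.58 ± 0.37, adjusted p = 0.112), and its partner S100a9, with which it forms calprotectin, differed by 1.59 ± 0.31. Lcn2, for the iron-siderophore binder lipocalin 2 that injured hepatocytes make as well as neutrophils, was at 169, 440.2 and 92.2 FPKM in WT and 2373, 3824 and 1377 FPKM in KO tumors (3.6 ± 0.63, adjusted p = 0.0765). Csf3r, the receptor gene for the neutrophil growth factor, stood far lower, at 0.756, 0.854 and 0.36 FPKM in WT and 2.04, 2.27 and 1.61 FPKM in KO tumors. Lymphocyte markers mostly overlapped between the genotypes. Of 20 T and NK cell markers 7 were tested and 3 retained, and 0 of the 7 separated the groups (median over the 7 of 0.30, which ran from -0.13 without KO tumor 2 to 0.68 without KO tumor 3), and the T cell chemokine gene Ccl5 was at 4.16, 3.91 and 22.2 FPKM in WT and 9.6, 45.6 and 7.12 FPKM in KO tumors, high in WT tumor 3 and KO tumor 2. Among 4 tested of 10 B and plasma cell markers 2 lay lower without overlap (the median of -0.45 was -0.21 over the list without the filter): Jchain, the joining chain of secreted antibodies, was at 29.8, 21 and 53.9 FPKM in WT and 16.3, 3.93 and 8.73 FPKM in KO tumors (-1.83 ± 0.51), and the other was the entry that joins Mzb1 with Spata24.

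Of 23 NF-kB and TNF response genes 12 lay higher without overlap, 0 lower, and 2 (Ier3 and Cd14) were called, with a median of 0.69. Some members are counted in other lists too. Cd14 is also a macrophage marker and Ier3 an immediate early gene here, and Lcn2 is in the neutrophil, acute phase and liver tumor lists. Il1b, the inflammatory cytokine gene, was at 2.35, 0.876 and 1.15 FPKM in WT and 5.36, 6.18 and 3.43 FPKM in KO tumors (1.30 ± 0.28, adjusted p = 0.102). The feedback inhibitor genes stood closer to WT: Nfkbia differed by 0.46 ± 0.19 and Tnfaip3 overlapped between groups (0.69 ± 0.28). Among 13 retained chemokine genes 1 lay higher and 1 lower without overlap (median 0.75, or 0.57 over the list without the filter). The 1 higher was Cxcl16, a ligand for CXCR6, at 6.92, 5.94 and 6.28 FPKM in WT and 17.3, 21.1 and 11.1 FPKM in KO tumors (1.20 ± 0.24). The 1 lower was Cxcl11, a CXCR3 ligand induced by interferon, at 6.45, 4.62 and 4.35 and 1.5, 1.18 and 1.6 FPKM (-1.33 ± 0.19, adjusted p = 0.0512), against the direction of most interferon-stimulated genes. Its relative Cxcl10 overlapped, at 9.47, 5.41 and 12.6 and 42, 22.1 and 8.55 FPKM, and the monocyte chemokine Ccl2 was high in KO tumor 1 alone (26, 2.83 and 6.14 FPKM in KO, 1.61, 3.96 and 4.33 FPKM in WT tumors).

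Extracellular matrix genes were higher in KO tumors: of 22 retained of 27 tested, 17 lay higher without overlap, 0 lower and 0 were called, with a median of 1.28. Col1a1, a chain of the main fibrillar collagen of scar tissue, was at 3.78, 5.04 and 3.94 FPKM in WT and 33.2, 60.1 and 14.2 FPKM in KO tumors (2.60 ± 0.47, adjusted p = 0.0775). Col3a1 was at 7.68, 13.5 and 9.31 and 42, 76.3 and 28 FPKM (2.07 ± 0.38, adjusted p = 0.0788). For both collagens KO tumor 2 was highest and KO tumor 3 lowest of the KO tumors, and the same order held for Col1a2 (37.4, 75.6 and 21.9 FPKM). Col5a2, which passed the filter through the KO tumors, had less spread, at 0.743, 1.09 and 1.28 and 4.14, 5.93 and 4.66 FPKM (1.53 ± 0.19, adjusted p = 0.0512). The small proteoglycan genes Lum (1.38 ± 0.21) and Bgn (1.57 ± 0.26) also separated the groups. Dcn, another small proteoglycan gene, overlapped, at 39.3, 44.9 and 38.9 FPKM in WT and 41.6, 37.1 and 124.7 FPKM in KO tumors. Of 16 retained markers of stellate cells and myofibroblasts, the cells that make this matrix in liver, 6 lay higher without overlap, 0 lower and 0 were called (median 0.85, or 0.67 over the list without the filter). Pdgfrb, the receptor gene of activated stellate cells, was at 1.15, 1.52 and 1.84 FPKM in WT and 3.88, 6.91 and 3.26 FPKM in KO tumors (1.14 ± 0.26, adjusted p = 0.111). Acta2, the smooth muscle actin gene, overlapped, at 11.9, 3 and 5.16 and 17.5, 11.4 and 34 FPKM. The defining stellate marker Lrat overlapped too, at 1.11, 0.702 and 1.05 FPKM in WT and 1.29, 0.519 and 1.56 FPKM in KO tumors. Des, a further defining marker, lay higher, at 1.23, 0.941 and 1.15 and 1.34, 2.72 and 3.27 FPKM. Rgs5, of pericytes (2.07 ± 0.51), Timp1, a metalloprotease inhibitor gene that passed the filter through the KO tumors (1.94 ± 0.49), and S100a6 (2.11 ± 0.33) lay higher. The summed FPKM of the 18 tested stellate markers was 99.88 to 129.6 in WT and 189.6 to 327.3 in KO tumors. Their part in the matrix values was not tested.

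Endothelial markers as a whole did not separate the groups, but 2 of 19 lay higher without overlap and 0 lower (median 0.25, which ran from 0.01 without KO tumor 3 to 0.39 without WT tumor 1). These were Plvap, which forms the diaphragms of capillary pores and is scarce in liver sinusoids, at 23.6, 20.9 and 22.7 FPKM in WT and 43.1, 49.1 and 54 FPKM in KO tumors (1.08 ± 0.17, adjusted p = 0.0598), and Cd34 (1.36 ± 0.48, or 0.82 without KO tumor 2). Stab2, a scavenger receptor gene of sinusoidal endothelium, was low in KO tumors 1 and 2 only, at 15.9, 11 and 11 and 5.8, 1.86 and 14.5 FPKM. Of 12 retained of 14 tested cholangiocyte and progenitor markers 5 lay higher without overlap, 0 lower and 0 were called (median 0.88). The simple-epithelium keratin genes Krt8 and Krt18, which hepatocytes also express, were among them: Krt8 was at 170.1, 150.3 and 202 FPKM in WT and 367, 599 and 515 FPKM in KO tumors (1.48 ± 0.26, adjusted p = 0.0775), and Krt18 differed by 1.27 ± 0.26. The duct keratin gene Krt19 was at 0.483, 0.168 and 0.555 and 1.03, 1.01 and 5.13 FPKM, highest in KO tumor 3, and Epcam stayed under 2 FPKM in all 6 tumors. Cd24a, a surface marker of progenitors, differed by 1.84 ± 0.52 (1.19 without KO tumor 2). The membrane protease gene St14, which passed the filter through the KO tumors, differed by 1.40 ± 0.38.

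Genes induced by NRF2, the factor that answers oxidative and electrophilic stress, lay higher in KO tumors without overlap for 13 of 21 retained members and lower for 0, with 0 called and a median of 0.96. Nqo1, the quinone reductase gene most used as a readout of NRF2, was at 13.3, 8.54 and 11.6 FPKM in WT and 80.7, 76.4 and 38.6 FPKM in KO tumors (2.39 ± 0.32, adjusted p = 0.0512). Gsta4, a glutathione transferase gene for lipid peroxidation products, was at 112, 81.4 and 90.3 and 326, 338 and 300.5 FPKM (1.77 ± 0.21, adjusted p = 0.0512). The 3 KO values of Gsta4 lay close together. Gsta1 (2.36 ± 0.35) and Gsta2 (2.11 ± 0.38), whose near-identical copies may share reads, and the efflux transporter gene Abcc3 (1.22 ± 0.29) lay higher too. Gclc, of glutathione synthesis, did not follow: it was at 97.2, 136 and 132 FPKM in WT and 86.6, 129 and 89.6 FPKM in KO tumors (-0.26 ± 0.24). Srxn1, the sulfiredoxin gene, differed by 0.81 ± 0.27.

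Several hepatocyte functions were low in KO tumors 1 and 2 and near WT in KO tumor 3. KO tumor 3 was also the nearest to WT in MHC class II, described above. There the group means over all tested members were 1.66, 2.08 and 0.57 relative to WT in KO tumors 1, 2 and 3. All 20 tested pericentral genes, those that WNT signals maintain around the central vein, had a lower mean in KO tumors, but 1 lay lower without overlap and 0 were called; the median of -0.88 became -1.38 without KO tumor 3 and -0.44 without KO tumor 2. Relative to the WT mean, the mean log2(FPKM + 1) of the group was -1.42, -1.87 and 0.32 in KO tumors 1, 2 and 3. Cyp2e1, the P450 enzyme best known for activating DEN, was at 1222, 2140.0 and 1352 FPKM in WT and 173, 66.5 and 2796 FPKM in KO tumors. Oat, ornithine aminotransferase, was at 92.8, 192 and 127 and 10.3, 7.91 and 122 FPKM. In both genes KO tumor 3 lay inside or above the range of WT tumors while KO tumors 1 and 2 lay far below every WT tumor. Notum, a secreted WNT inhibitor gene, showed the order too, at 9.32, 13.9 and 8.56 and 1.69, 1.52 and 12.2 FPKM, and so did Gulo, the last enzyme gene of vitamin C synthesis, at 112, 194 and 141 and 45.5, 42.4 and 144 FPKM. Glul, the glutamine synthetase gene that is positive in tumors with active beta-catenin, overlapped between the groups, at 138, 207 and 124 and 52.8, 128 and 200.2 FPKM. The 1 gene that lay lower without overlap was Lgr5, a receptor gene of the WNT pathway, which was under 1 FPKM in all 6 tumors.

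The group mean of genes with a sex bias in liver, which growth hormone pulses set, repeated this pattern. Hsd3b5, Elovl3, Serpina12, Mup16 and Mup8, given below, did so only in part. In each of them KO tumor 3 was the highest KO tumor but lay below all WT tumors. Of 21 retained 5 lay lower without overlap, 0 higher and 0 were called (median -1.04). The mean of the 23 tested relative to WT tumors was -2.20, -1.96 and -0.01 in KO tumors 1, 2 and 3. The list pools male-biased and female-biased genes, and these values are over both. Among the latter, Cyp2b13 differed by -2.03 and the joint entry of Sult2a1, Sult2a3 and Sult2a4 by 0.38, neither of them retained. Hsd3b5, a male-specific steroid dehydrogenase gene, was at 22, 92.4 and 48.4 FPKM in WT and 0.609, 0.324 and 7.42 FPKM in KO tumors (-4.18 ± 0.79, adjusted p = 0.0828). Elovl3, a fatty acid elongase gene with higher levels in males, was at 11.8, 98.2 and 180.2 and 0.684, 3.44 and 9.09 FPKM (-3.86 ± 1.05, adjusted p = 0.142). For both genes KO tumor 3 lay below all WT tumors, though it was the highest KO tumor. Serpina12, the vaspin gene, was at 380.1, 397 and 270.2 FPKM in WT and 40.2, 34.2 and 142 FPKM in KO tumors (-2.54 ± 0.53, adjusted p = 0.094). Entries of the major urinary protein genes Mup16 (83.9, 1379 and 58.3 FPKM in WT, 2.42, 4.9 and 30.6 FPKM in KO tumors) and Mup8 (-3.61 ± 1.09) lay lower too, but these genes are near-identical copies and their single values are uncertain.

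Drug metabolism and transport genes were again low on average in KO tumors 1 and 2, partly through genes counted in more than 1 list. Slco1a1 is in the sex-biased, uptake transporter and bile acid lists, and Cyp2b13 is in the sex-biased and P450 lists. Of 33 retained genes of cytochrome P450 families 1 to 3, 1 lay lower and 1 higher without overlap and 0 were called (median -0.49, over all 34 tested -0.50, or -0.87 without KO tumor 3 and -0.18 without KO tumor 2, and -0.24 over the list without the filter). Group means over all 34 tested were -0.94, -1.37 and 0.67 relative to WT in KO tumors 1, 2 and 3. They were 0.02, -0.11 and 0.09 in WT tumors 1, 2 and 3, so KO tumor 3 lay above all WT tumors. Cyp3a11, the main drug-metabolising P450 gene of mouse liver, was at 356, 746 and 1281 FPKM in WT and 134, 133 and 1192 FPKM in KO tumors. The 1 lower was Cyp3a59 (-1.26 ± 0.45) and the 1 higher Cyp2c39 (0.84 ± 0.16, near 1 FPKM). Uptake transporters had 5 of 19 retained members lower without overlap, 1 higher, and 1 (Slc22a28) called (median -0.49, and over all 20 tested -0.46, or -0.19 without KO tumor 1 and -0.77 without KO tumor 3). Slc22a30, a neighbour in sequence of Slc22a28, was at 48.6, 62.2 and 53 FPKM in WT and 9.07, 8.19 and 19.99 FPKM in KO tumors (-2.15 ± 0.33, adjusted p = 0.0598), and for it KO tumor 3 was well below WT. Slco1a1, an organic anion transporter gene with male bias, was at 30.3, 32.3 and 25.8 and 1.27, 0.416 and 15.3 FPKM (-3.02 ± 0.83), and Slco1b2, the main hepatocyte uptake carrier of its family, at 83.2, 114 and 77.6 and 24, 15.4 and 83.2 FPKM.

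In bile acid synthesis and transport 2 of 20 genes lay lower and 2 higher without overlap and 0 were called (median -0.85, or -0.25 without KO tumor 1, -0.49 without KO tumor 2 and -0.48 without WT tumor 3). Abcb11, the bile salt export pump gene, was at 69.4, 118 and 144 FPKM in WT and 21.3, 38 and 68.3 FPKM in KO tumors (-1.45 ± 0.46, adjusted p = 0.18). Cyp7a1, the rate-limiting enzyme of bile acid synthesis, was low in KO tumors 1 and 2 and above WT in KO tumor 3 (14.5, 10.2 and 5.25 FPKM in WT, 1.01, 2.42 and 17.6 FPKM in KO tumors). Akr1d1, which reduces the steroid ring of bile acid precursors, lay higher (0.96 ± 0.27).

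**Figure D4:**
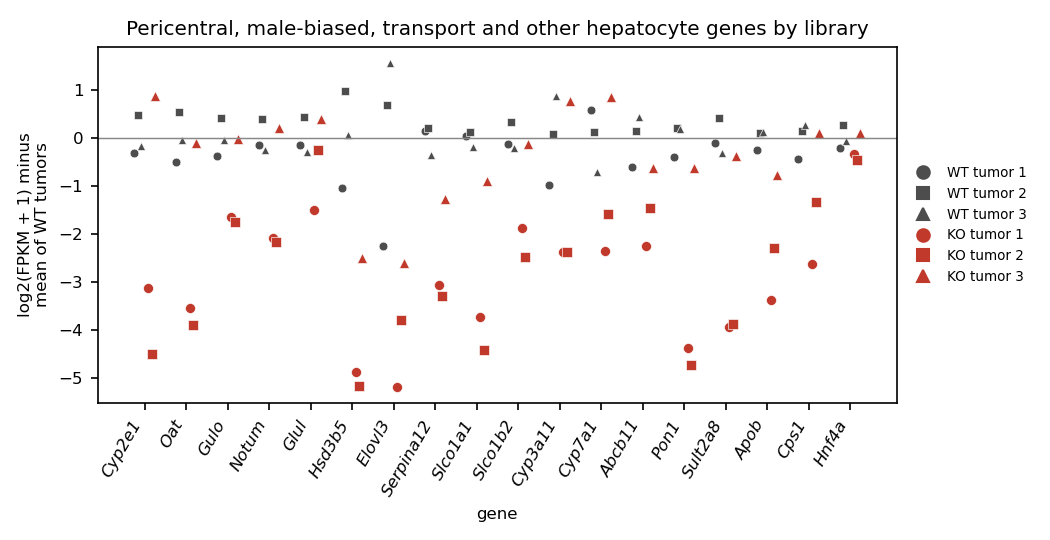
Level of 18 hepatocyte genes in each tumor library, as log2(FPKM + 1) minus the mean of the WT tumors (grey WT, red KO). KO tumors 1 and 2 lie below all WT tumors for most of them, while KO tumor 3 (triangles) lies near 0 for Oat, Gulo, Notum and Cps1 and above the WT tumors for Cyp2e1.

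Hepatocyte lineage genes themselves were mixed: of 30 tested, 6 lay lower without overlap, 0 higher and 0 were called (median -0.34, which ran from -0.82 without KO tumor 3 to -0.09 without KO tumor 2, and was -0.56 with zeros such as those of WT tumor 1 set to missing). Hnf4a, the central hepatocyte transcription factor gene, overlapped at 127, 178 and 141 FPKM in WT and 116, 108 and 158 FPKM in KO tumors. Cebpa (-0.77 ± 0.23) and Foxa3 (-0.93 ± 0.22), for 2 further hepatocyte factors, lay lower. Apob, the structural protein gene of very low density lipoprotein, was at 889, 1139 and 1157 and 100.4, 214 and 618 FPKM (-2.15 ± 0.62, adjusted p = 0.155), lowest in KO tumor 1. Periportal genes split evenly, with 9 higher, 9 lower and 0 without overlap among 18, and Cps1, which opens the urea cycle, was at 326, 486 and 535 and 70.8, 173 and 476 FPKM.

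Many genes of the unfolded protein response lay lower in KO tumors. Of 26 tested 14 lay lower without overlap, 0 higher and 0 were called (median -0.63), and the mean relative to WT tumors was -0.54, -0.38 and -0.50 in KO tumors 1, 2 and 3. WT tumor 1 also lay low, at -0.38, where its zero for Dnajb11 counts. Hspa5, which encodes the chaperone BiP, was at 501, 824 and 753 FPKM in WT and 289, 287 and 290.5 FPKM in KO tumors (-1.23 ± 0.26, adjusted p = 0.0986). Its co-chaperone Dnajb9 was at 44.8, 57.1 and 38.1 and 23, 18.5 and 20.2 FPKM (-1.13 ± 0.20, adjusted p = 0.0775). The 3 KO values of Hspa5 were nearly equal. Xbp1, the factor that drives much of this response, differed by -0.87 ± 0.21 and Sel1l, of the degradation machinery, by -0.97 ± 0.18.

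Acute phase proteins went both ways: of 24, 7 lay higher and 4 lower without overlap and 0 were called (median 0.48, or 0.24 without KO tumor 1 and 0.25 without WT tumor 3). Lbp, which hands lipopolysaccharide to CD14, was at 24.9, 31.1 and 26.1 FPKM in WT and 89.8, 66.3 and 64.9 FPKM in KO tumors (1.39 ± 0.20, adjusted p = 0.0551). The fibrinogen chain genes lay lower, Fga at 1858, 2335 and 2241 and 769.9, 1121 and 1011 FPKM (-1.16 ± 0.29) and Fgb by -1.19 ± 0.30. Saa1 overlapped, at 66.1, 440.4 and 106 and 326, 384 and 648 FPKM, and the joint entry of Orm1 and Orm2 lay higher (1.54 ± 0.53, or 0.99 without WT tumor 1). In the 250 bases before the start, the letters TGANTCA of AP-1 occurred, on either strand, in 7 of 20 acute phase genes with a promoter (35%), in 0 of 17 AP-1 and immediate early genes and in 7.82% of all genes. Of 19 retained AP-1 and immediate early genes 3 lay higher without overlap, 0 lower, and 1 (Ier3) was called (median 0.41, and over all 20 tested 0.49, or 0.28 without KO tumor 3). Klf6 was at 7.49, 3.85 and 7.02 FPKM in WT and 14.5, 13 and 31.5 FPKM in KO tumors (1.47 ± 0.38), and Fosl2 differed by 0.79 ± 0.25. Jun was highest in KO tumor 3, at 20.5, 26.6 and 84.6 FPKM in KO and 12.9, 8.56 and 23.3 FPKM in WT tumors, as was Fos, at 4.75, 2.65 and 10.4 and 5.12, 1.22 and 1.37 FPKM.

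Proliferation differed among KO tumors more than between genotypes. Of 26 retained cell cycle and DNA replication genes 2 lay higher without overlap, 0 lower and 0 were called (median 0.26, and over all 32 tested 0.27, but -0.07 without KO tumor 2 and 0.67 without KO tumor 3). Group means over all 32 tested, relative to WT, were 0.26, 1.02 and -0.40 in KO tumors 1, 2 and 3. Mki67, the proliferation marker Ki-67, was at 2.46, 1.49 and 1.77 FPKM in WT and 3.07, 5.82 and 1.15 FPKM in KO tumors. Mcm2, of the replicative helicase, was at 4.1, 4.51 and 3.08 and 7.01, 10.01 and 4.62 FPKM (0.70 ± 0.27), and Mcm6 at 4.16, 5.12 and 4.58 and 11.1, 17 and 3.75 FPKM. In all 3 genes KO tumor 2 was the highest of the 6 libraries. Among 19 retained p53 targets 3 lay higher and 2 lower without overlap (median 0.17, and over all 21 tested 0.19, or 0.29 without WT tumor 2). Phlda3 (1.01 ± 0.33), Sesn2 (0.91 ± 0.23) and Ephx1 (1.40 ± 0.54, or 0.80 without KO tumor 2) lay higher, the cell death gene Bbc3 lay lower (-0.66 ± 0.23), and the cell cycle inhibitor gene Cdkn1a overlapped at 8.53, 38.9 and 44.3 and 17, 91.7 and 58.5 FPKM.

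Oncofetal markers varied widely between single tumors of both genotypes. Of 22 retained liver tumor markers 6 lay higher and 0 lower without overlap (median 0.47, which over all 27 tested was 0.07 without KO tumor 1, 0.07 without WT tumor 3 and 0.93 without WT tumor 1). Afp, alpha-fetoprotein, was at 472, 118 and 82.3 FPKM in WT and 191, 6.29 and 137 FPKM in KO tumors. Gpc3, the glypican used to stain hepatocellular carcinoma, was at 164, 53.2 and 0.541 and 109.7, 1.86 and 83 FPKM. The entry of the imprinted noncoding RNA H19 was at 796, 23 and 48.1 and 193, 5876 and 128 FPKM, and its imprinted neighbour Igf2 at 72.2, 0.3 and 0.539 and 4.14, 194 and 2.57 FPKM. WT tumor 1 was the highest WT tumor for all 4 genes, whereas KO tumor 2 was the highest KO tumor for H19 and Igf2 and the lowest for Afp and Gpc3. Markers that did separate the groups were Ly6d, at 40.05, 48.6 and 11.8 FPKM in WT and 144, 465 and 134 FPKM in KO tumors (2.82 ± 0.66), and Cd44, the hyaluronan receptor gene (1.38 ± 0.29, adjusted p = 0.0928). Of 19 retained growth factor receptors 6 lay higher without overlap, among them Axl (1.22 ± 0.31) and Pdgfrb, 0 lay lower, and the median was 0.33. Over all 20 tested it was 0.12 (from 0.05 without WT tumor 2 to 0.27 without KO tumor 2 with 1 library left out, and -0.27 among the receptors with a mean of 5 FPKM or more).

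The other separated differences named by their size were short of the test. Mt2, a metallothionein gene, was at 355, 115 and 164 FPKM in WT and 709, 1392 and 3652 FPKM in KO tumors (3.01 ± 0.67, adjusted p = 0.103), highest in KO tumor 3. Ucp2, a mitochondrial carrier gene, was at 34.1, 30.8 and 20.9 and 155, 376 and 122 FPKM (2.73 ± 0.43, adjusted p = 0.0625), and Gipc2 at 0.12, 4.1 and 1.02 and 25.2, 52.2 and 4.49 FPKM. Among lower genes, Sdr9c7, a short-chain dehydrogenase gene, was at 12.1, 20.8 and 38.1 FPKM in WT and 1.2, 1.47 and 2.85 FPKM in KO tumors (-3.02 ± 0.42, adjusted p = 0.0512). Pon1, the lipoprotein-bound paraoxonase, was at 204, 311 and 307 and 11.9, 9.16 and 175 FPKM (-3.24 ± 1.03), and the sulfotransferase gene Sult2a8 at 88, 127 and 76.9 and 5.28, 5.56 and 73.6 FPKM (-2.73 ± 0.92). For both, KO tumor 3 was just below the lowest WT tumor and KO tumors 1 and 2 were far below. The joint entry of Xlr3a and Xlr3c (-3.00 ± 0.53) and Wfdc15b (-2.80 ± 0.65) also lay lower. Of 5 erythroid genes, a sign of blood in the tissue, 2 lay higher without overlap (median 1.11, or 0.54 without KO tumor 3 and 0.63 over the list without the filter), both globins and highest in KO tumor 3: the entry of Hba-a1 and Hba-a2 was at 25.4, 30.9 and 44.8 FPKM in WT and 58.6, 75.7 and 226 FPKM in KO tumors. Alas2, the heme synthesis gene of erythroid cells, was at 27.2, 49.7 and 67.7 and 7.12, 16.3 and 34.6 FPKM and did not follow them. The summed FPKM of the 5 genes was 105.3 to 185.6 in WT and 152.4 to 562.1 in KO tumors.

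**Figure D5:**
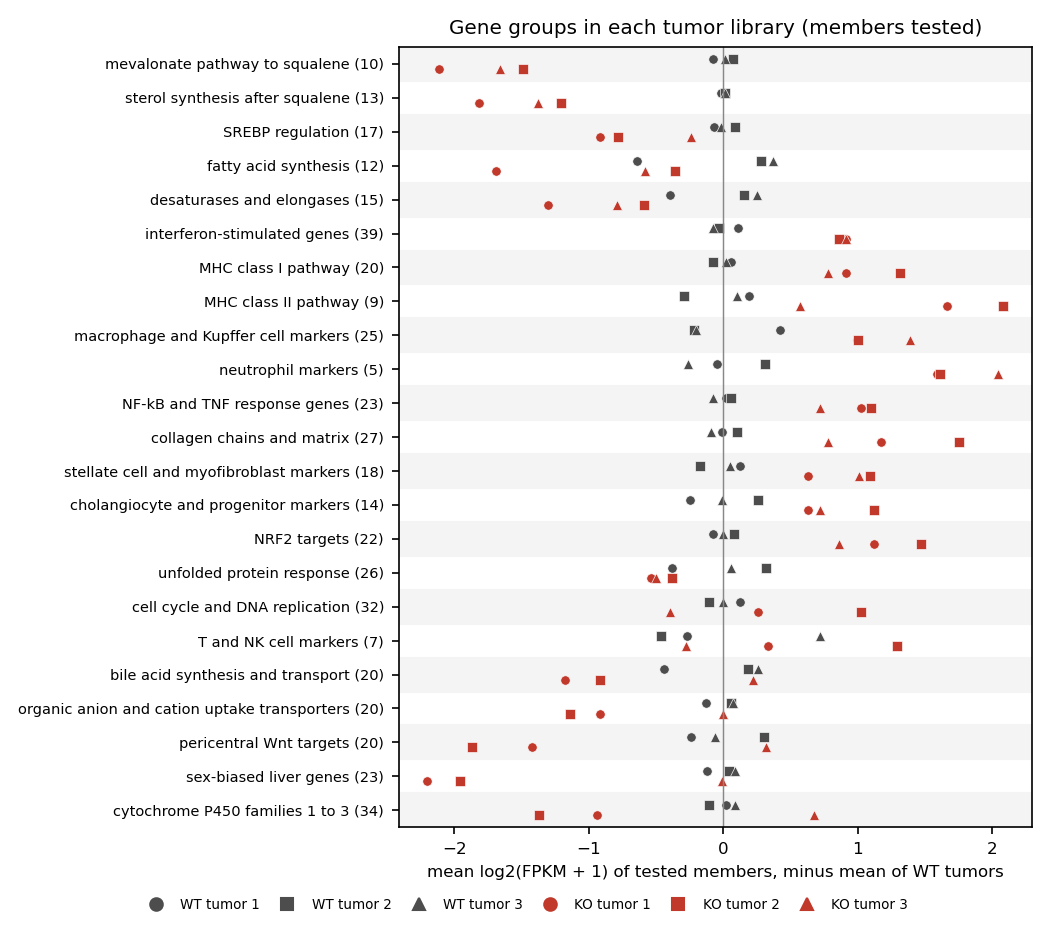
Mean log2(FPKM + 1) of all tested members, retained or not, of 23 gene groups in each tumor library, relative to the mean of the WT tumors (number of members in parentheses, grey WT, red KO). All 3 KO tumors lie apart from WT for sterol, interferon, MHC, matrix and NRF2 groups, whereas KO tumor 3 (triangles) lies in or next to the WT range for pericentral, sex-biased and transporter genes. For P450 genes KO tumor 3 lies above the WT tumors.

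Whether the tumor differences go beyond those of normal liver was tested with the interaction of genotype and tissue over the 12 libraries, in which 134 entries had a KO effect that was higher in tumor than in liver (1.15% of those tested) and 109 a lower one (0.934%). This fit takes 1 spread per gene over tumors and livers together. The median SD was 0.31 in KO tumors but 0.16 in WT liver and 0.17 in KO liver. The error of the tumor part can therefore be understated, and the interaction calls carry that limit. Of the 9 called genes 6 were among these entries: Ier3 (interaction 3.37 ± 0.30), Cd14 (3.57 ± 0.54), Abcc12 (2.71 ± 0.32), Lss (-2.25 ± 0.40), Slc22a28 (-2.28 ± 0.36) and Mst1r (-2.17 ± 0.23). Abcc12 and Mst1r were not retained and were under 1 FPKM in every liver library, so their interaction supports nothing. Idi1, Cyp51 and Krtcap3 did not pass the interaction, and in normal liver they passed limma's test in the same direction, with KO-minus-WT differences of -1.95 (adjusted p = 0.00442), -1.16 (adjusted p = 0.0121) and 2.06 (adjusted p = 0.0031). In the sterol groups Fdft1 (-1.41 ± 0.28) and among SREBP genes Insig1 (-2.94 ± 0.52) had a lower KO effect in tumor than in liver. Of the 39 interferon-stimulated genes 5 passed in the higher direction, Oas1a with Oas1g (1.96 ± 0.40) and Oasl2 (1.68 ± 0.29) among them. Of the 27 matrix genes 5 passed in that direction, with Col1a1 (2.60 ± 0.57) and Col5a2 (1.55 ± 0.22). Both counts are over all tested members, of which 1 and 5 passed the filter through the KO tumors. Col5a2 is among the latter and was under 1 FPKM in every liver library, so its interaction supports nothing. Of the 20 pericentral and 34 P450 genes 0 passed by this limma fit in either direction. With 1 library left out the interaction calls numbered 7 without WT liver 2, 9 without KO liver 3, 10 without WT liver 3, 22 without KO liver 2, 18 without WT tumor 3, 29 without WT tumor 2, 96 without KO tumor 1, 146 without KO tumor 2, 370 without WT tumor 1 and 1368 without KO tumor 3.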

How the data were processed

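RNA of 12 mouse liver and tumor libraries (4 groups of 3) was selected with poly(A) beads and built into non-directional libraries. This is per the labels' protocols. FPKM is the unit the authors deposited, in 1 table per library. TopHat2 2.1.1, Cufflinks 2.2.1 and mm10 are named in the submitters' processing notes, which name no annotation. Each table holds 24553 entries, 600 of which join several genes and 865 of which repeat a name. Whole reads could not be recovered from the low values (at most 0.2% of values on a common step), so the depth and the counting error of a value are unknown and no count test was run. Samples were grouped by title.

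Entries with 1 FPKM or more in 3 or more libraries (11671) were taken as log2(FPKM + 1), and fold changes are on that scale, which understates changes of low genes. KO and WT tumors were compared with limma 3.58.1 (R 4.3.3; empirical Bayes with a variance trend, 6 libraries, two-sided, Benjamini-Hochberg over 11671 entries, called below 0.05); every adjusted p and SE printed comes from limma. The interaction used 12 libraries. The steps were tested on simulated data with the means and spreads of the tumors. The tumor test called 9.0% of 200 entries changed by a log2 of 1 and 81.5% of those changed by 2. A gene that was not called may therefore still differ. Positions come from GENCODE vM21 (GRCm38), which placed 90.2% of entries by symbol, and promoters from RefSeq. Of 825 symbols in 41 gene lists 776 had an entry of their own, 45 a joined one and 4 none. Named were Setd2, called genes, up to 12 of the largest separated rises and falls (unadjusted p below 0.05, mean of 5 FPKM or more in the higher group), and for each list up to 4 members of smallest p and preset members; some genes that this rule names are not reported here. Members and lists were chosen with earlier results of these data known. Alternatives covered the added constant, the filter, scaling, the fit, zeros and left-out libraries, and, chosen after seeing the data, gene groups without members that needed the libraries of 1 tumor group to pass the filter.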

Additional observations from a re-analysis of the deposited data

Results flagged for a closer look

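Of the genes described, 35 had a KO effect in tumor that differed from the KO effect in normal liver by the interaction in limma (adjusted p from 0.00253 to 0.0499), 21 in the higher and 14 in the lower direction; the value given is the KO-minus-WT log2 difference in tumor minus that in liver. The fit pools the spread of the livers with the larger spread of the KO tumors, so it can understate the error of the tumor part. The called genes among the 35 were Ier3 (3.37), Cd14 (3.57), Abcc12 (2.71), Lss (-2.25), Slc22a28 (-2.28) and Mst1r (-2.17). For Lss and Slc22a28 the liver difference was -0.24 and 0.04, so nearly all of the value lay in the tumors. For Abcc12 and Mst1r it was 0.10 and 0.08, but both were under 1 FPKM in every liver library. Abcc12 passed the filter through the KO tumors and Mst1r through the WT tumors, so their interaction supports nothing. Sterol genes were Fdft1 (-1.41) and Insig1 (-2.94).

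Interferon, antigen presentation and myeloid genes were Oas1a with Oas1g (1.96), Oasl2 (1.68), Tapbp (1.37), Laptm5 (1.46), Cybb (3.42), Il1b (2.13) and Cxcl11 (-1.49), and the acute phase gene was Lbp (1.65). Matrix and epithelial genes were Col1a1 (2.60), Col5a2 (1.55), Krt8 (2.29) and Cd44 (1.63). In Col1a1 the liver difference was 0.00. In Col5a2 it was -0.02, but Col5a2 was under 1 FPKM in every liver library and passed the filter through the KO tumors. Genes of the oxidative stress response were Nqo1 (1.83), Gsta1 (2.42) and Srxn1 (3.72). Hepatocyte and male-biased genes were Hsd3b5 (-4.52), Serpina12 (-3.72), Slc22a30 (-2.16) and Sdr9c7 (-3.15). Outside these groups were the joint entry of Xlr3a and Xlr3c (-3.36) and Wfdc15b (-3.26). Wfdc15b was at 0.346, 0.387 and 0.475 FPKM in WT liver and 101, 35.4 and 53.2 FPKM in WT tumors.

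For 6 of the genes the liver difference was larger than the tumor difference and of opposite sign. Mt2 (7.89) was 3.01 in tumor and -4.88 in liver, Socs3 (3.26) 0.59 and -2.67, Srxn1 0.81 and -2.90, Bbc3 (-2.56) -0.66 and 1.90, Fosl2 (1.79) 0.79 and -1.0 and Phf1 (-1.02) -0.39 and 0.63. Klf6 (2.69) was 1.47 and -1.22. The KO and WT libraries are 3 a group in each tissue, too few for a test of single libraries that stand apart.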

How the results depend on the processing

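Against 9 calls between KO and WT tumors (4 higher, 5 lower), 1 was made without a filter on low FPKM, 24 were made after rescaling to TPM (12 and 12), 14 after median-of-ratios scaling (4 and 10), 16 after quantile normalization (7 and 9), 1017 in a fit over all 12 libraries and 235 with array quality weights. With 1 library left out they ran from 0 to 266. Against 243 interaction calls (134 and 109), 56 were made without a filter, 133 at a mean of 5 FPKM or more, 120 after TPM rescaling (82 and 38), 608 with array quality weights, and 7 to 1368 with 1 library left out. TPM rescaling moved the median difference of all entries from 0.02 to 0.12. The other alternatives kept both counts within 1.5 times. Idi1 was called in 15 of 18 alternatives and the other 8 called genes in 9 to 12 of the 17 or 18 that could be run on them, all in their direction. A replicate block, taking equal numbers as pairs, gave 0 calls and 1 interaction call. Same-numbered KO and WT tumors deviated together with r of 0.35, 0.01 and 0.09, so the numbers were not taken to pair the samples.

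Of 181 genes examined under 18 alternatives 5 changed sign. Nsd1 went from -0.03 to 0.07 after TPM rescaling and ran from -0.09 to 0.02 with 1 library left out. Clec4f went from -0.30 to 0.15 with array weights and ran from -1.54 to 0.80. Gpc3 ran from -1.66 to 2.01, Igf2 from -0.30 to 3.44 and Glul from -0.88 to 0.07. The median of growth factor receptors was -0.27 at a mean of 5 FPKM or more. The other list medians of 0.1 or more in size kept their sign under each scaling, except cholesterol efflux (0.02 after quantile normalization). An added constant of 5 lowered several, such as matrix (0.68) and interferon-stimulated genes (0.51). The causes were not tested. Setting improbable zeros to missing and leaving out liver libraries were alternatives chosen after seeing the data. The depth is unknown, so no limit from counting error can be given, and 3 libraries a group limit the precision.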

Other observations

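Elovl6, which lengthens palmitate, was at 13.7, 21.1 and 17.9 FPKM in WT and 8.01, 11.2 and 16.2 FPKM in KO tumors. Acot2, a mitochondrial acyl-CoA thioesterase gene, was at 2.33, 0.986 and 1.06 FPKM in WT and 1.73, 7.08 and 9.43 FPKM in KO tumors, with KO tumor 3 the highest of the 6. Among 11 ATP-binding cassette drug efflux transporters that passed the filter without relying on 1 tumor group, 1 lay higher without overlap (Abcc3) and 3 lower, with a median of 0.25. Over all 12 tested, Abcc12 included, the median was 0.27, and 0.08 without WT tumor 1, 0.10 without WT tumor 3 and 0.08 without KO tumor 2. Ptprc, the pan-leukocyte antigen CD45, was at 5.2, 1.92 and 3.56 FPKM in WT and 11, 9.35 and 3.64 FPKM in KO tumors: KO tumors 1 and 2 lay above all WT tumors and KO tumor 3 lay between them. Socs3, a feedback inhibitor gene of interleukin 6 signalling, was at 4.32, 5.13 and 3.39 FPKM in WT and 6.53, 5.99 and 8.32 FPKM in KO tumors (0.59 ± 0.20). Of the exocrine pancreas genes listed to detect adjoining pancreas, 1 was tested: Cela1 was at 41.0 to 71.9 FPKM in WT and 29.1 to 40.9 FPKM in KO tumors, while Cpa1 was listed at 0 in 4 of the 6 libraries.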
